A study of Mus musculus with 14 samples.

Results

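Lysyl oxidases are secreted, copper-dependent amine oxidases that convert lysines and hydroxylysines of collagen and elastin to aldehydes, from which the cross-links between fibers form. The intervertebral disc depends on such cross-links in the collagen lamellae of the annulus fibrosus and in its elastic fibers. The mouse family has 5 genes, Lox, Loxl1, Loxl2, Loxl3 and Loxl4, and they were taken by gene symbol from a table of 55487 genes. All 5 passed the filter on low counts and are among the 16915 genes tested.

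RNA was measured in caudal discs of 14 mice in 2 cohorts, each mouse giving 1 library from 5 pooled discs. In the first cohort, 3 db/db male mice, deficient in the leptin receptor Lepr, were compared with 3 db/+ heterozygous mice at 12 weeks of age. In the second, 4 male C57BL/6J mice received 100 mg/kg streptozotocin after 4 to 6 weeks of a high-fat diet and stayed on that diet for 12 more weeks (STZ-HFD). Their controls were 4 C57BL/6J mice that the labels call wild type (Con+Veh). Per the methods of the study, these controls received standard chow and an injection of citrate buffer alone. Diet and streptozotocin therefore cannot be told apart in this comparison. The methods describe the mice of this cohort as 12 weeks old, which given the diet schedule cannot be their age at the end. Strain background, age and schedule differ between the cohorts, so each diabetic group was compared only with its own control, and a level in one cohort was not tested against a level in the other. Whole discs were pulverized, so fewer cells of a type and less RNA per cell cannot be told apart. The total count of Lepr cannot check the db labels, because the db allele alters splicing of the receptor and not the presence of its transcript.

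Gene counts totaled 16076908 to 58943169 per library, of which 28.1% to 60.2% lay in ribosomal RNA genes. Levels are given as CPM, read counts scaled to a common library size, which is the library total times a TMM factor that takes up differences in library make-up. A single library stood apart, STZ-HFD replicate 1, which had the lowest total and a TMM factor of 1.58 against 0.693 to 0.742 in the other STZ-HFD libraries. Chondrocyte markers summed to 1420 to 3381 CPM in Con+Veh and 628.5 to 1335 CPM in STZ-HFD, and skeletal muscle markers summed to 7717 to 9600 CPM and 8234 to 21391 CPM. Of 9 nucleus pulposus and notochord markers, Noto and Shh were at 0 in at least 1 library of every group, and the others were above 0 in all libraries. The list summed to 661.1 to 4474 CPM in db/+, 999.2 to 1300 CPM in db/db, 2011 to 5784 CPM in Con+Veh and 3555 to 7805 CPM in STZ-HFD. The epidermal keratins Krt5 and Krt14 were at 0 in at least 1 library of every group. Several of these lists are given again beside the results they move with.

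The 5 proteins share a catalytic domain with a copper site, and differ upstream of it. Lox and Loxl1 carry a propeptide that is cut off after secretion, whereas Loxl2, Loxl3 and Loxl4 carry scavenger receptor cysteine-rich domains. On the GRCm38 genome (GENCODE M21), Loxl1 (ENSMUSG00000032334) lies on the minus strand of chromosome 9, from 58287738 to 58313186. Loxl2 (ENSMUSG00000034205) lies on the plus strand of chromosome 14, from 69609068 to 69695834. Loxl3 (ENSMUSG00000000693) lies on the plus strand of chromosome 6, from 83034173 to 83052562. Loxl4 (ENSMUSG00000025185) lies on the minus strand of chromosome 19, from 42593982 to 42612813.

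The coding stretch around the copper site shows 2 close pairs at the level of bases, Lox with Loxl1 and Loxl2 with Loxl4. It is shown 5′ to 3′ from the longest GENCODE transcript, with capitals marking the 33 bases that encode the run of copper-binding histidines; Lox is described without its bases.
Loxl1: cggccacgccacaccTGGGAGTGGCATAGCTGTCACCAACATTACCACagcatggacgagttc
Loxl2: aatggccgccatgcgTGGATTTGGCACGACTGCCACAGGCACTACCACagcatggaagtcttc
Loxl3: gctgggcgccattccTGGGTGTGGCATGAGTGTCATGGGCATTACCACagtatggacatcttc
Loxl4: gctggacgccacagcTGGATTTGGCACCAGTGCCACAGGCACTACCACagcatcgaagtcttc
The stretch runs over an exon junction in every member. It covers exons 3 and 4 of 7 in Loxl1 (chr9:58293705-58294396) and exons 10 and 11 of 14 in Loxl2 (chr14:69682301-69689052) and Loxl3 (chr6:83049980-83050140). In Loxl4 it covers exons 11 and 12 of 15 (chr19:42598792-42599914). Over the 33 capital bases, Lox and Loxl1 were identical at 32 and Loxl2 and Loxl4 at 31. Loxl3 matched Loxl1, Loxl2 and Loxl4 at 25 each and Lox at 24, so here it was no closer to Loxl2 and Loxl4 than to Loxl1. The longest run of bases shared exactly by any pair of members over their whole transcripts was 32, between Lox and Loxl1. Whether reads that match several places were counted is not given in the sources used here.

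Loxl3, whose product modifies fibrillar collagens and elastin-associated proteins, was the 1 member whose fall in db/db discs passed the test. Loxl2 and Loxl4 were also lower, at log2 fold changes of −0.81 and −0.71, and did not pass. Loxl3 was counted at 75.2, 102.9 and 81.9 CPM in the 3 db/+ libraries and at 35.9, 37.3 and 41.5 CPM in the 3 db/db libraries. Every db/db library lay below every db/+ library, as did those of 11.7% of the genes tested. The log2 fold change was −1.18 (SE 0.27, limma adjusted p = 0.0346), that is 2.27-fold lower. A gene was called here at an adjusted p under 0.05, over all genes tested, with a log2 fold change of 1 or more in size. Calls in either direction made up 1.66% of all genes for db/db, against 2.61% for STZ-HFD. Loxl3 was the 1 of 5 members called lower in db/db, against 0.432% of the genes tested, and no member was called higher, against 1.23%. The call was lost when any 1 of the 6 db libraries was left out, with log2 fold changes of −1.25 to −1.04 and adjusted p of 0.0643 to 0.138. Loxl3 was not called by edgeR's quasi-likelihood test (adjusted p = 0.25) or DESeq2 (adjusted p = 0.09), which called no other member either, and the estimates there were −1.18 and −1.16. The members counted at an unadjusted p under 0.05 by limma were 3 of 5, against 21.1% of all genes, and all 3 were lower in db/db, against 10.4%. Chondrocyte markers summed to 13412 to 23332 CPM in db/+ and 5432 to 13936 CPM in db/db with none of 7 called, and osteoblast markers to 1146 to 1769 CPM and 652.9 to 877.5 CPM, with all 6 below 0, a median log2 fold change of −0.98 and none called. Their part in the fall of Loxl3 was not tested.

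The other 4 members did not pass the test in db/db discs. Lox, the founding member and the main cross-linker of arterial elastin and skin collagen, was at 76.6, 91.1 and 77.2 CPM in db/+ and at 86.2, 109.7 and 142.0 CPM in db/db. The groups overlapped, and the log2 fold change was 0.43 (95% CI −0.21 to 1.08, adjusted p = 0.431). Loxl1, which is needed to renew elastic fibers in adult tissue, was at 14.7, 15.3 and 17.0 CPM in db/+ and at 17.5, 20.6 and 25.4 CPM in db/db. All 3 db/db libraries were above all db/+ libraries, as for 14.1% of the genes tested, with a log2 fold change of 0.43 (95% CI −0.18 to 1.04, adjusted p = 0.407). Loxl2, which acts on collagen IV of basement membranes, was at 58.8, 68.5 and 41.7 CPM in db/+ and 37.3, 21.0 and 43.4 CPM in db/db. The groups overlapped through db/+ replicate 3 and db/db replicate 3, and the log2 fold change was −0.81 (95% CI −1.42 to −0.19, adjusted p = 0.133). Loxl4, a matrix-associated member expressed in cartilage, was at 54.8, 27.4 and 47.4 CPM in db/+ and 16.9, 27.0 and 32.7 CPM in db/db. Db/+ replicate 2 lay within the db/db range, and the log2 fold change was −0.71 (95% CI −1.29 to −0.13, adjusted p = 0.157). Single libraries moved these values, Loxl4 to −0.44 without db/db replicate 1, Loxl2 to −0.49 without db/db replicate 2 and Lox to 0.25 without db/db replicate 3.

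**Figure D1:**
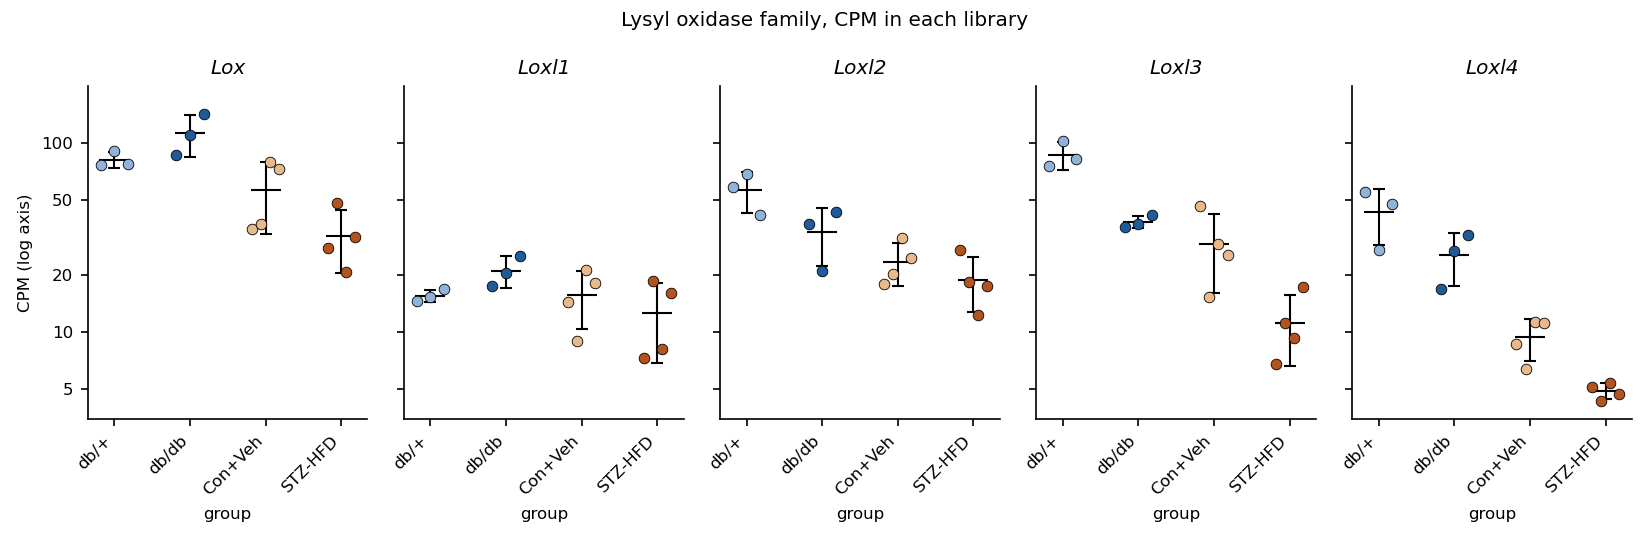
CPM of each family member (log axis) in each library, by group; points are libraries, horizontal bars the group mean and error bars the SD (n = 3, 3, 4 and 4). The 3 db/db libraries of Loxl3 sit between 35.9 and 41.5 CPM, below all db/+ libraries, and the 4 STZ-HFD libraries of Loxl4 sit between 4.36 and 5.43 CPM, below all Con+Veh libraries.

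Lox and Loxl3 were the members called lower in STZ-HFD discs. Lox was at 35.1, 37.3, 79.1 and 72.9 CPM in Con+Veh and at 27.8, 48.5, 20.9 and 31.96 CPM in STZ-HFD. The groups overlapped, since STZ-HFD replicate 2 lay above Con+Veh replicates 1 and 2. The log2 fold change was −1.27 (SE 0.25, adjusted p = 0.0142), or 2.41-fold lower. Loxl3 was at 46.7, 15.4, 29.1 and 25.5 CPM in Con+Veh and at 6.80, 11.2, 9.30 and 17.4 CPM in STZ-HFD. These groups overlapped by STZ-HFD replicate 4 and Con+Veh replicate 2, the pair of libraries whose names end in RIP, and the log2 fold change was −1.18 (SE 0.25, adjusted p = 0.0196). Without that pair Loxl3 was at −1.56 (adjusted p = 0.00877) and Lox at −1.30 (adjusted p = 0.0384). The count of members called lower was 2 of 5, against 1.31% of the genes tested, and no member was called higher, against 1.3%. At an unadjusted p under 0.05 all 5 members were below their controls, against 9.54% of all genes below and 17.9% in either direction. This count holds for the weighted fit, since without weights Loxl1 was at −0.30 (SE 0.32) and Loxl2 at −0.33 (SE 0.30). In no member did all STZ-HFD libraries lie above all controls, against 1.83% of the genes tested. In the same comparison 5 of 7 chondrocyte markers were called lower and 4 of 8 skeletal muscle markers higher, and their part in these results was not tested beyond the muscle score given with the cell type markers.

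The fold change of Lox depended on library quality weights, by which limma counted Con+Veh replicates 3 and 4 at 3.05 and 1.81 and Con+Veh replicates 1 and 2 at 0.275 and 0.462. Without weights the log2 fold change of Lox was −0.76 (adjusted p = 0.389) and that of Loxl3 was −1.32 (adjusted p = 0.119), so neither was called by limma, although the estimate for Loxl3 was no smaller. Without Con+Veh replicate 3 the values were −0.98 and −1.06 (adjusted p = 0.336 and 0.312), and without STZ-HFD replicate 3 they were −0.97 and −1.03 (adjusted p = 0.208 and 0.209). Leaving out Con+Veh replicate 4 also ended both calls (−1.13 and −1.17, adjusted p = 0.131 and 0.119), and leaving out STZ-HFD replicate 4 ended that of Lox (−1.24, adjusted p = 0.0677). Without STZ-HFD replicate 1, the library that stood apart, both remained called, at −1.31 and −1.17 (adjusted p = 0.0141 and 0.0203). EdgeR's quasi-likelihood test called no member, with Lox at −0.78 (adjusted p = 0.317) and Loxl3 at −1.37 (adjusted p = 0.102), and DESeq2, which uses no such weights, called Loxl3 alone, at −1.37 (adjusted p = 0.00583). With each model fitted alone, Loxl3 was not called (−1.16, adjusted p = 0.0507) and Loxl4 was (−1.03, adjusted p = 0.0495). Calls over all genes in STZ-HFD were 220 higher and 221 lower in the weighted fit, 3 and 16 without weights and 6 and 23 with edgeR. They were 3 and 14 without Con+Veh replicate 3, 4 and 14 without Con+Veh replicate 4 and 3 and 15 without STZ-HFD replicate 3.

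Loxl4 was the member with the least spread relative to its mean in STZ-HFD discs. It was at 8.68, 6.43, 11.4 and 11.2 CPM in Con+Veh and at 5.11, 4.36, 5.43 and 4.72 CPM in STZ-HFD. All STZ-HFD libraries lay below all Con+Veh libraries, as for 2.88% of the genes tested. The log2 fold change was −1.07 (SE 0.33), and its adjusted p of 0.0811 missed the threshold. Loxl1 was at 14.5, 9.02, 21.4 and 18.3 CPM in Con+Veh and at 7.31, 18.7, 8.15 and 16.1 CPM in STZ-HFD, with overlapping groups and a log2 fold change of −0.60 (95% CI −1.19 to −0.01, adjusted p = 0.267). Loxl2 was at 18.0, 20.2, 31.6 and 24.8 CPM in Con+Veh and at 27.1, 18.4, 12.4 and 17.5 CPM in STZ-HFD. Here STZ-HFD replicate 1 lay above 3 of the 4 controls, and the log2 fold change was −0.76 (95% CI −1.32 to −0.19, adjusted p = 0.132). It was −0.47 without Con+Veh replicate 3, −0.50 without STZ-HFD replicate 3, and −0.33, −0.30 and −0.28 without weights, by edgeR and by DESeq2. Loxl1 was at −0.29 without either of those libraries, and at −0.30, −0.32 and −0.30 in the other 3 fits.

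**Figure D2:**
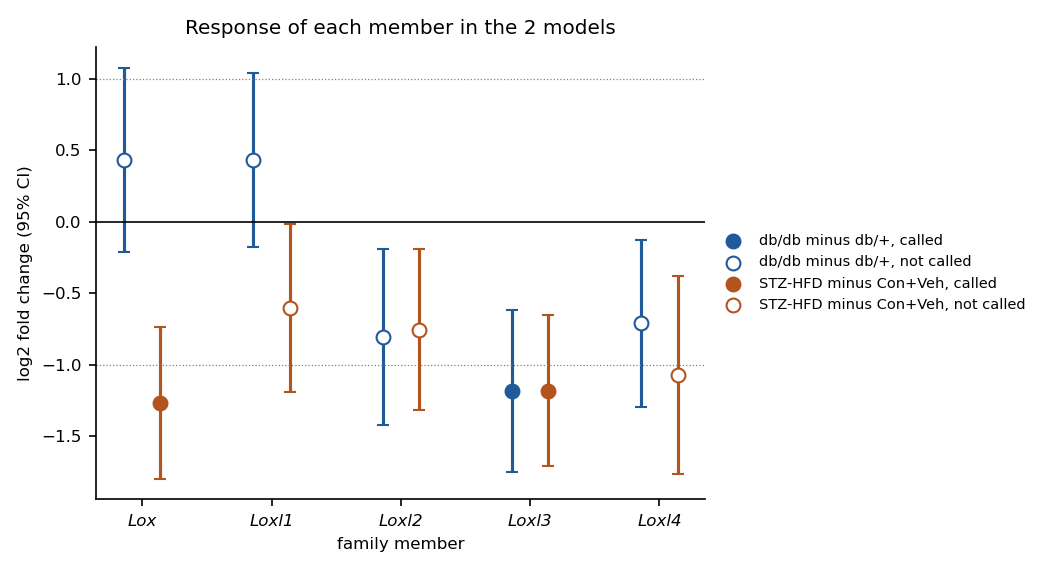
Log2 fold change of each member with its 95% confidence interval in db/db against db/+ and in STZ-HFD against Con+Veh; filled points were called and dotted lines mark log2 fold changes of 1 in size. Loxl3 is at −1.18 in both comparisons, whereas Lox is at 0.43 in the one and −1.27 in the other.

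The direct test of whether a response differed between the models passed for Lox alone. Its log2 fold change in db/db discs exceeded that in STZ-HFD discs by 1.70 (SE 0.40, adjusted p = 0.039), the 1 of 5 members called, against 0.816% of the genes tested called higher, 0.952% called lower and 1.77% either way. At an unadjusted p under 0.05, 2 of 5 members differed in either direction, against 17.3% of all genes in either direction. Both, Lox and Loxl1, were higher, and none was lower, against 8.35%. The call was lost in 10 of the 14 fits that left out 1 library, where the difference ran from 1.40 to 1.87 and the adjusted p from 0.0265 to 0.201. These 10 were the 6 db libraries and replicates 3 and 4 of Con+Veh and of STZ-HFD. It was also lost by edgeR (1.25, adjusted p = 0.327) and DESeq2 (1.24, adjusted p = 0.183). In the same contrast 4 of 8 skeletal muscle markers were called lower, with a median of −2.10, and 2 of 6 endothelial, 1 of 6 fibroblast and 1 of 6 macrophage markers were called higher. With the muscle score as a covariate the difference for Lox was 1.51 (adjusted p = 0.316). Loxl1 differed by 1.03 (95% CI 0.18 to 1.88, adjusted p = 0.192). The differences of Loxl2 (−0.05, 95% CI −0.88 to 0.78), Loxl3 (0.00, 95% CI −0.78 to 0.77) and Loxl4 (0.36, 95% CI −0.54 to 1.27) did not pass.

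The make-up of the family was described by each member's share in the summed CPM per kb of exon. In this measure library scaling cancels, but a trend with GC content does not. Genes near Lox in GC content had a median log2 fold change of 0.18 in db/db. That median was −0.16, −0.22, −0.41 and −0.51 for genes near Loxl2, Loxl3, Loxl4 and Loxl1. The part of GC content in the shares was not tested. Lox made up 26.4%, 29.2% and 27.8% of the family in db/+ and 42.9%, 48.3% and 47.8% in db/db. Loxl3 made up 26.9%, 34.3% and 30.6% in db/+ and 18.6%, 17.0% and 14.5% in db/db. Loxl1 made up 7.10% to 8.86% in db/+ and 12.4% to 13.1% in db/db. These 3 shares did not overlap between the groups, whereas those of Loxl2 (13.3% to 19.4% and 8.16% to 16.4%) and Loxl4 (9.96% to 21.4% and 9.52% to 13.4%) did. Such a share has no counterpart over all genes, so the 3 are a description, and Loxl3 and Lox led together in db/+ whereas Lox led alone in db/db. In the other cohort Lox had 27.0% to 45.5% in Con+Veh and 33.9% to 44.7% in STZ-HFD, which overlapped, and Loxl4 had 7.13% to 7.97% and 4.56% to 10.4%. Loxl3 had 37.2% in Con+Veh replicate 1 and 16.5% to 17.5% in the other 3 controls, and 9.38% to 19.1% in STZ-HFD.

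**Figure D3:**
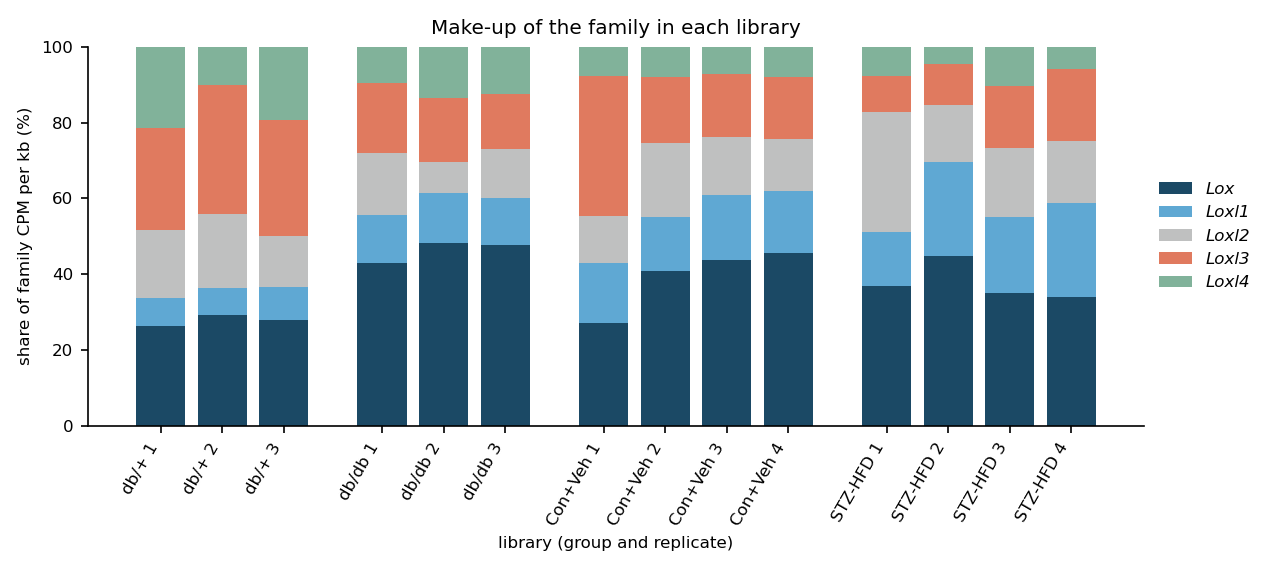
Share of each member in the family's summed CPM per kb, in percent, with one stacked bar per library that adds to 100%. Lox takes 42.9% to 48.3% in db/db against 26.4% to 29.2% in db/+, and Con+Veh replicate 1 differs from the other controls by a Loxl3 share of 37.2%.

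In levels per length, the db/+ order was Loxl3 (18.8 ± 3.13 CPM per kb, SD, n = 3), Lox (17.1 ± 1.72), Loxl2 (10.4 ± 2.51), Loxl4 (10.3 ± 3.37) and Loxl1 (4.74 ± 0.36). Loxl3 and Lox overlapped, as did Loxl2 and Loxl4, and the other neighbors did not. In db/db Lox (23.6 ± 5.86 CPM per kb) stood clear of Loxl3 (8.30 ± 0.63), which stood clear of Loxl1 (6.42 ± 1.22), and Loxl2 and Loxl4 overlapped with Loxl1. In Con+Veh the order was Lox (11.7 ± 4.84 CPM per kb, n = 4), Loxl3, Loxl1 and Loxl2, all overlapping with their neighbors, and Loxl4 (2.23 ± 0.56) was below Loxl2 in every library. In STZ-HFD Lox (6.76 ± 2.45 CPM per kb) led in all 4 libraries and Loxl4 (1.16 ± 0.11) was last in all 4. The 5 members summed to 61.3 ± 3.61 CPM per kb in db/+, 50.6 ± 10.4 in db/db, 29.5 ± 8.16 in Con+Veh and 17.7 ± 4.49 in STZ-HFD, and the ranges of each model and its control overlapped. With the longest transcript as the length, Loxl4 moved above Loxl2 in db/+ and to the third place in db/db.

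Estimated transcript counts were read for Lox, Loxl1 and Loxl3, since the main transcripts of Loxl2 and Loxl4 were not analysed here. The transcript Lox-201 held 94.6% to 99.1% of the estimated counts of Lox on average in the 4 groups. For Loxl3, Loxl3-202 led with group means of 63.0% to 68.6%, Loxl3-201 held 12.2% to 21.3% and Loxl3-205 10.9% to 21.5%. The share of Loxl3-202 was 54.2% to 75.4% in db/+ and 56.6% to 82.0% in db/db, so that the fall of the gene in db/db came with no separation of its transcript shares. In Con+Veh that share ran from 39.5% in replicate 3 to 93.4% in replicate 1, on estimated counts of 77.0 and 663.9. Gene totals from these estimates gave Loxl3 −1.14 in db/db (adjusted p = 0.0644) and −1.28 in STZ-HFD (adjusted p = 0.0929), and Lox −1.05 in STZ-HFD (adjusted p = 0.153), none of them called.

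Loxl3 exons overlap 535 bases of Htra2, a mitochondrial protease gene on the other strand, or 11.6% of the Loxl3 exon length, and the strand setting of the counting is not given in the sources used here. Htra2 was at 0.627 to 2.67 CPM in the 14 libraries and passed no test. The antisense gene Gm27177 covers 301 bases, or 5.57%, of the Loxl2 exons, and reads of the pair cannot be told apart without strand. Lox (ENSMUSG00000024529) lies on the minus strand of chromosome 18, from 52516067 to 52529867.

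Substrates of the family were read in the same libraries. Of 12 fibrillar collagen and elastin genes, none was called in db/db, where their median log2 fold change was −0.31 against −0.04 over all genes tested. In STZ-HFD 1 of the 12 was called lower, against 1.31% of the genes tested. This was Col2a1, the main collagen of cartilage and the nucleus, which fell by 1.84 on the log2 scale (adjusted p = 0.0162, called in 8 of 16 alternative settings). The other 11 were not called, and the median of the list was −0.51. Col1a1, the main collagen of the outer annulus, was at −0.45 in db/db (adjusted p = 0.581) and −0.84 in STZ-HFD (adjusted p = 0.104). Eln, which encodes elastin, was at 0.63 (adjusted p = 0.384) and −0.34 (adjusted p = 0.655). None of 6 collagen IV genes was called in either model, and Col4a1 was at 0.38 and −0.02.

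The difference between a member and a substrate was tested within each model by a two-sided exact permutation test over libraries, for 30 pairs in all, and no adjusted p was below 0.3. With 3 libraries against 3 the smallest p is 0.1, so these values describe the libraries. The 8 pairs named next are those whose libraries did not overlap between the groups, and all other pairs overlapped. Of single genes, 14.1% lay wholly higher and 11.7% wholly lower in db/db, and no such share was computed for pairs. Log2 CPM of Lox relative to Col2a1 was higher in every db/db library than in any db/+ library, by 1.46 on average, and relative to Col1a1 by 0.90. Loxl1 gave 1.44 and 0.88. Loxl3 was lower relative to Eln in every db/db library, by −1.82, and relative to Col1a1 by −0.71, and Loxl2 relative to Eln by −1.41. In STZ-HFD Loxl1 relative to Col2a1 was higher in all 4 libraries, by 1.08 (exact p = 0.0286, adjusted p = 0.3). Such a difference moves with either gene. Col2a1 itself had log2 fold changes of −0.98 in db/db and −1.84 in STZ-HFD, and Loxl1 of 0.43 and −0.60.

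Of 13 partners that process or bind lysyl oxidases or collagens, 5 were called lower in STZ-HFD, against 1.31% of the genes tested. None was called higher, against 1.3%, and the median of the list was −0.94. Pcolce2, an enhancer of procollagen processing, fell from 118.3 ± 52.8 to 35.6 ± 13.3 CPM (log2 fold change −1.80, adjusted p = 0.00247). Fn1, the fibronectin on which Lox is activated, was at −1.62 (adjusted p = 0.0179), and Fmod, a collagen-binding proteoglycan that binds Lox, at −1.58 (adjusted p = 0.00567). Thbs1 (−1.95, adjusted p = 0.00454) and Sparc (−1.03, adjusted p = 0.0412), a collagen chaperone in the matrix, were also called lower. Of 16 alternative settings, Sparc was called in 2, Fn1 in 8, Fmod in 9, Thbs1 in 10 and Pcolce2 in 11. Bmp1, the protease that removes the Lox propeptide, was not called (−0.35, adjusted p = 0.455). None of the 13 was called in db/db, where their median was −0.33. In STZ-HFD chondrocyte markers moved the same way, 5 of 7 tested being called lower, and their part in these results was not tested.

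Genes of elastic fiber assembly, on which tropoelastin is laid down before cross-linking, gave 2 called lower of 16 in STZ-HFD, against 1.31% of the genes tested. These 2 were Fbln1 (−1.99, adjusted p = 0.00516) and Ltbp2 (−1.22, adjusted p = 0.0111). They were called in 9 and 6 of 16 alternative settings, and Ltbp2 turned to 1.88 with transcript totals. In db/db 1 of the 16 was called lower, against 0.432% of the genes tested. This was Efemp2, the fibulin that brings Lox to tropoelastin, at −1.17 (adjusted p = 0.0338). It went from 12.96 ± 2.21 to 5.97 ± 2.05 CPM, and was called in 6 of 16 alternative settings. Genes of collagen lysyl and prolyl hydroxylation, glycosylation and folding were below 0 in 15 of 16 in both models. Their medians were −0.39 and −0.33, against −0.04 over all genes tested in either model. The share of all genes below 0 was not computed. Of the 16, 1 was called, Colgalt2, a collagen galactosyltransferase, lower in STZ-HFD (−1.68, adjusted p = 0.00211), against 1.31% of the genes tested.

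Copper supply genes included 2 of 9 called higher in db/db, against 1.23% of the genes tested, and none in STZ-HFD, against 1.3%. They were Mt1 (1.30, adjusted p = 0.0327) and Mt2 (1.79, adjusted p = 0.045), metallothioneins that bind zinc and copper. Mt1 rose from 41.1 ± 14.2 to 101.3 ± 21.0 CPM. Atp7a, the pump that loads copper onto secreted enzymes including lysyl oxidase, had log2 fold changes of 0.02 with db/db and 0.01 with STZ-HFD. Of the other copper amine oxidases, Aoc3, expressed in adipocytes and vessels, rose in db/db (1.36, adjusted p = 0.0291), Aoc2 was not called and Aoc1 did not pass the filter on low counts. In db/db 4 of 7 adipocyte markers were called higher, summing to 195.5 to 410.3 CPM in db/+ and 340.1 to 622.3 CPM in db/db. A fit that took up a score of these markers called 0 genes higher and 0 lower in db/db, against 208 and 73 without it. The calls of Mt1, Mt2 and Aoc3 were thus lost there along with all others, and the cause of that loss was not tested.

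Among regulators known to act on the family elsewhere, 1 of 14 TGF-beta genes was called lower in STZ-HFD, against 1.31% of the genes tested. This was the target Tgfbi (−1.63, adjusted p = 0.00419), and none of the 14 was called in db/db. Tgfb1 was at −0.97 in STZ-HFD (adjusted p = 0.0785). None of 13 hypoxia-inducible factor genes tested was called in either model, and Hif1a was at 0.38 and −0.47. Of 7 Snail, Twist and Zeb factors, partners of Loxl2 and Loxl3 in epithelial cells, 2 were called lower in STZ-HFD, against 1.31% of the genes tested, and none in db/db. These 2 were Snai1 (−1.76, adjusted p = 0.0329) and Snai2 (−1.16, adjusted p = 0.0196). They were called in 5 and 6 of 16 alternative settings. The response in db/db exceeded that in STZ-HFD for 4 listed genes, Fbln1 (2.31, adjusted p = 0.0236), Tgfbi (1.95, adjusted p = 0.0267), Pcolce2 (1.84, adjusted p = 0.0475) and Mt1 (1.62, adjusted p = 0.0386). Of 15 alternative settings, these differences were called in 7, 9, 2 and 4. In this contrast 0.816% of the genes tested were called higher.

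**Figure D4:**
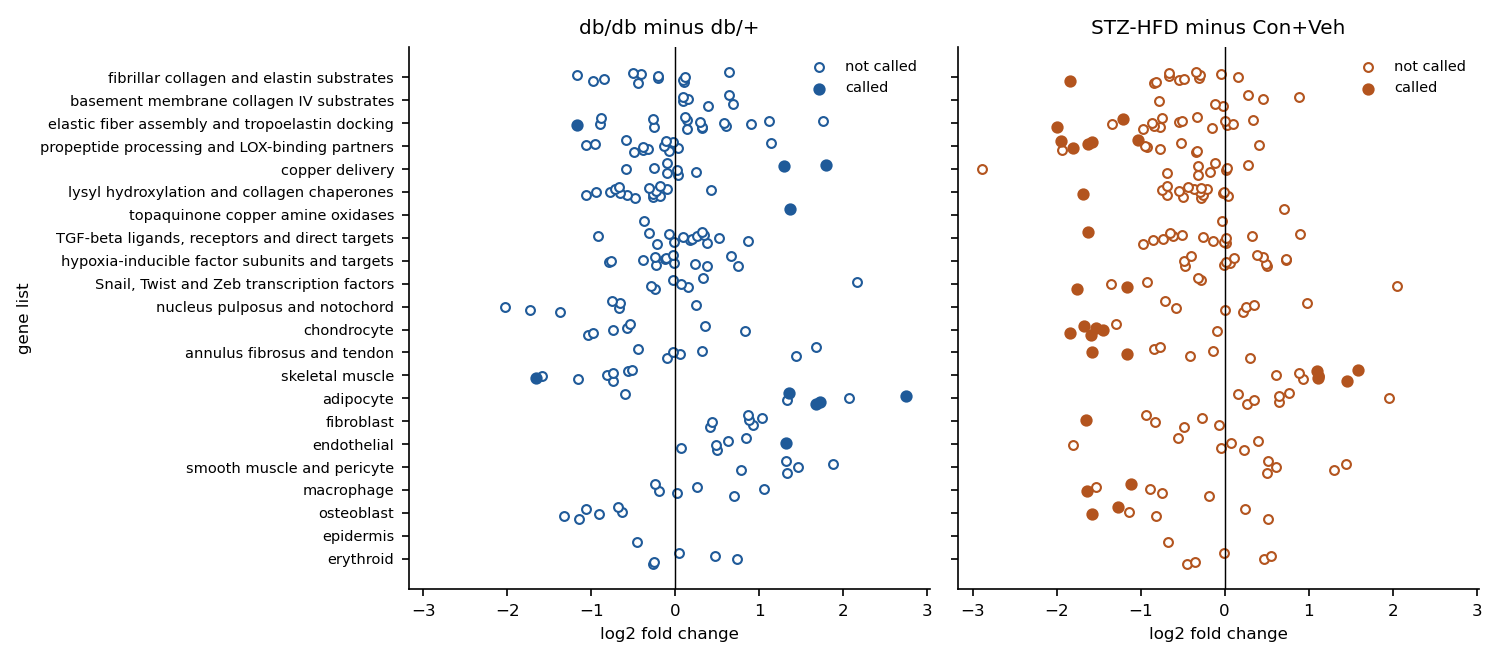
Log2 fold change of each tested gene of the context and cell type marker lists, left for db/db against db/+ and right for STZ-HFD against Con+Veh; filled points were called. In STZ-HFD 5 of 13 processing and binding partners and 5 of 7 chondrocyte markers lie among the called genes below 0, and 4 of 8 muscle markers among those above 0.

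Cell type markers moved with both comparisons. In STZ-HFD 4 of 8 skeletal muscle markers were called higher and 2 of 7 annulus fibrosus and tendon markers lower. Fmod is in both the annulus list and the partner list, and Col2a1 in both the chondrocyte and the substrate list. In STZ-HFD 1 of 6 fibroblast, 2 of 6 macrophage and 2 of 6 osteoblast markers were also called lower. In db/db 1 muscle marker was called lower and 1 of 6 endothelial markers higher. Over all genes tested, 1.3% were called higher and 1.31% lower in STZ-HFD, and 1.23% and 0.432% in db/db. With a muscle score as a covariate no member was called, Loxl3 being at −1.10 in db/db (adjusted p = 0.151) and −1.33 in STZ-HFD (adjusted p = 0.144) and Lox at −1.19 in STZ-HFD (adjusted p = 0.209). In that fit Loxl4 went to −0.39 in STZ-HFD and −1.31 in db/db. After removal of each library's trend with GC content, Loxl3 was at −0.99 in db/db (adjusted p = 0.0795), Loxl1, the most GC-rich member at 61.0% of its exon bases, went from 0.43 to 0.93 (adjusted p = 0.0845), and Loxl4 went from −0.71 to −0.33.

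Over the 14 libraries, the protein-coding genes whose log2 CPM was most like each member's were sought among 13617 genes. Loxl3 was most like Trpv4, a cation channel of chondrocytes (Pearson's r = 0.962), and Tmem39b (0.959). Loxl4 was most like Rab11fip4 (0.97) and Alpl, the alkaline phosphatase of mineralizing cells (0.968). Lox was most like Grn (0.945) and Gm2a (0.939), both lysosomal. Loxl1 was most like Ace (0.93) and Anpep (0.881), both membrane peptidases, and Loxl2 was most like Tubb2a (0.929) and Mxra7 (0.907). Libraries of a group share their cohort and treatment, and after removal of group means r was 0.8 for Loxl3 with Trpv4 and 0.584 for Loxl4 with Alpl. Within the family, after removal of group means, Lox and Loxl1 kept r = 0.805 and Loxl1 and Loxl3 kept 0.642. Loxl3 and Loxl4 were at 0.0457, and Loxl2 and Loxl4 at 0.000727. All pairs of members ran from −0.115 to 0.805.

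The promoter of Loxl4, 1 of the 5 in the RefSeq table used, is shown because the hypoxia and Snail lists above concern factors that bind such windows. It covers chr19:42612757-42613056 on the minus strand of GRCm38.p6, 300.0 bases with 75.0% GC, read 5′ to 3′, with capitals at the GC box GGGCGG.
Loxl4 promoter: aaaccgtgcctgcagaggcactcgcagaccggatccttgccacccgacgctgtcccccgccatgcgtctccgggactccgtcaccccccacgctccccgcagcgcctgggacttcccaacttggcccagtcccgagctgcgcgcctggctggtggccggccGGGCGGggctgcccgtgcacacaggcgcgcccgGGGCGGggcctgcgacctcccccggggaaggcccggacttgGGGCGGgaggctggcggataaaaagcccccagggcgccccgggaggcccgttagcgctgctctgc
The GC box occurs 3 times, and 35.7% of 32851 promoters hold it on either strand. The hypoxia core ACGTG is not in this window (19.6% of promoters hold it), GCGTG occurs 1 time (32.4%), and the E-box CACCTG (20.2%) and TATAAA (13.6%) are not in it.

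**Figure D5:**
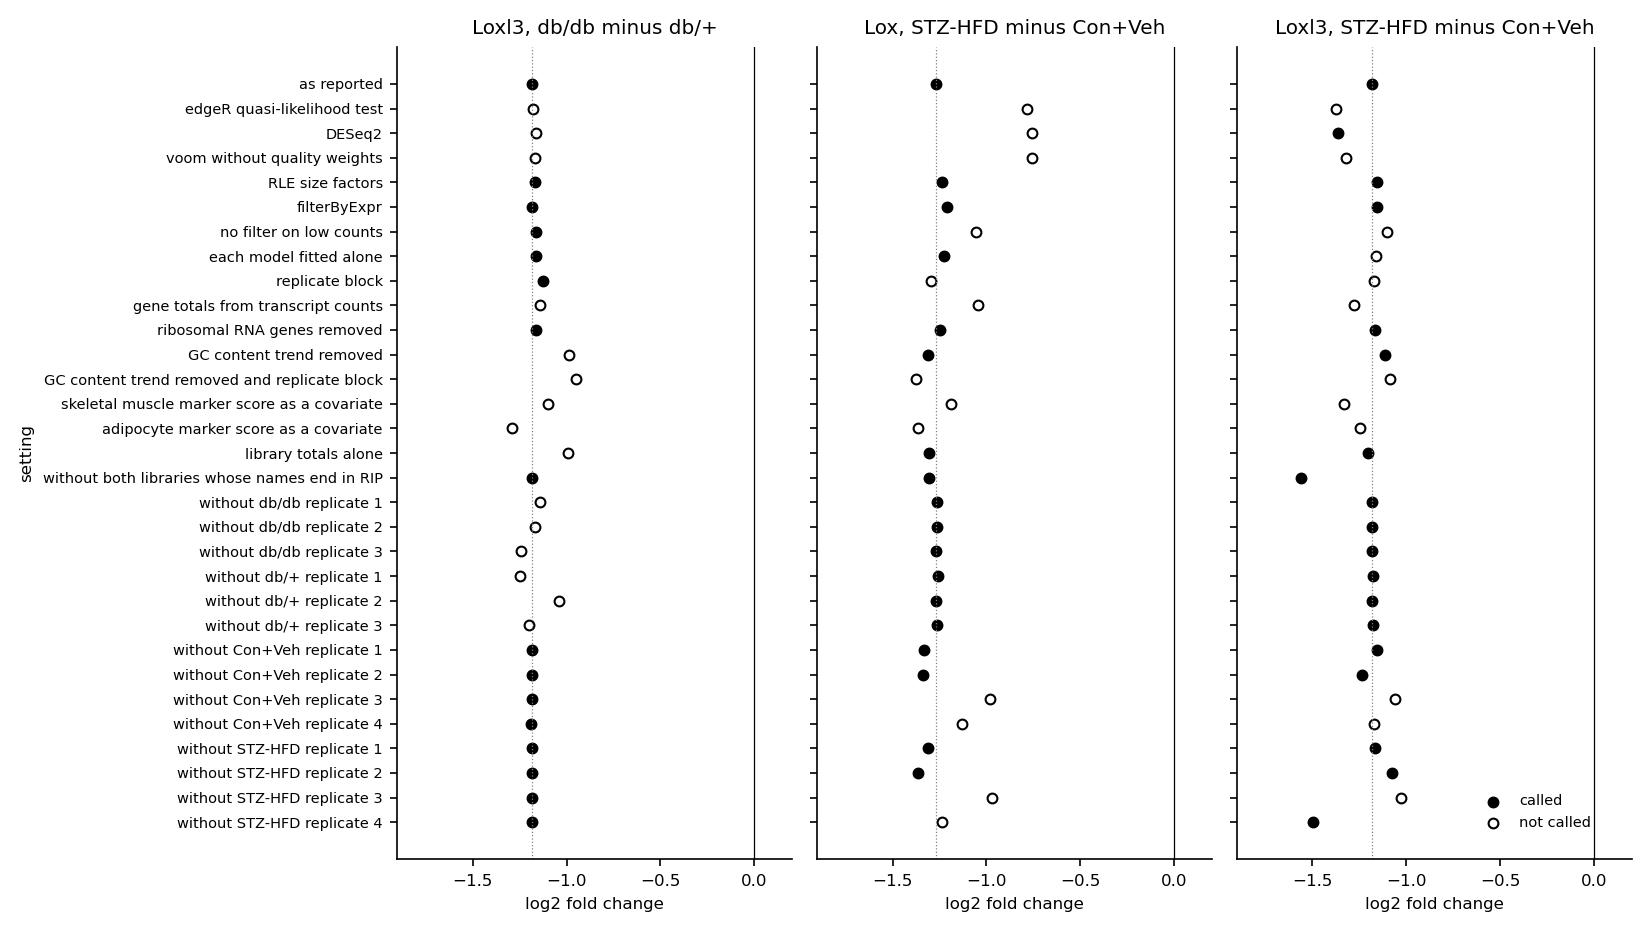
Log2 fold change of Loxl3 in db/db and of Lox and Loxl3 in STZ-HFD under each setting, one row per setting; filled points were called and the dotted line marks the reported value. All points lie below 0, from −1.29 to −0.95 for Loxl3 in db/db, from −1.37 to −0.76 for Lox and from −1.56 to −1.03 for Loxl3 in STZ-HFD, while the calls come and go.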

How the data were processed

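Per the labels and the methods of the study, RNA of 1 to 50 ng was amplified with SeqPlex and sequenced on a NovaSeq X Plus, and reads were aligned with STAR and counted per gene with featureCounts (Ensembl 101). The deposited gene counts are raw read counts, and the deposited estimated counts per transcript come from Salmon. Strand setting and treatment of multiply mapped reads are not given in the sources used here. The table holds 55774 lines, of which 287 repeat a gene and were removed.

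Genes above 1 CPM in at least 3 libraries were kept (16915). Counts were fitted with limma 3.58.1 (voom with quality weights, TMM factors from edgeR 4.0.16, R 4.3.3) over all 14 libraries, and p-values were adjusted by the Benjamini-Hochberg method over all genes tested. Standard errors and 95% intervals are from that fit, except that member and substrate differences used exact permutation tests. A count of 3, the limit that a count of 0 allows, was worth 0.0509 to 0.187 CPM, which covers counting error only. DESeq2 1.42.0 and edgeR's quasi-likelihood test were alternatives. Scripts were tested on simulated data. Annotation and sequences are from GENCODE M21 and RefSeq on GRCm38. Members, gene lists and tests were chosen with earlier results of these data known. Named were all 5 members, the 2 coding genes most correlated with each, every called gene of the context lists, and otherwise at most 4 genes per list in list order, beside Eln as a substrate.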

Additional observations from a re-analysis of the deposited data

Results flagged for a closer look

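The share of Loxl3 in the family's summed CPM per kb had 1 Con+Veh library far from the others. Con+Veh replicate 1 was at 37.2% and the other 3 were at 16.5% to 17.5%, so that the gap took 0.953 of the whole range, above Dixon's 95% critical value for 4 samples. Of 20 tests made this way, on the CPM and the share of each member in Con+Veh and in STZ-HFD, chance alone would mark about 1. These tests share libraries and are not independent.

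The response of Lox differed between the models by an interaction test. Its log2 fold change in db/db exceeded that in STZ-HFD by 1.70 (limma adjusted p = 0.039).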

How the results depend on the processing

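No member changed sign in db/db or STZ-HFD under any of the 16 alternatives run for Lox, Loxl1 and Loxl3 or the 15 run for Loxl2 and Loxl4, which have no transcript totals here, but calls were lost. In db/db the count of members called was 1, and 0 with edgeR, DESeq2, no quality weights, transcript totals, GC trend removed (alone or with the replicate block), a muscle or adipocyte score, or library totals alone, a scaling chosen after seeing the data that put the median of all genes at 0.18. In STZ-HFD it was 2, and 0 with edgeR, no weights, no filter, the replicate block (alone or with GC removed), transcript totals or either score, and 1 with DESeq2. With each model fitted alone it stayed at 2, but as Lox and Loxl4. For the difference between models it was 1, and 0 with edgeR, DESeq2, no weights, filterByExpr, no filter, the replicate block, transcript totals, GC removed, both together, either score, or without the RIP pair. Leaving out 1 library gave 0 to 1, 0 to 3 and 0 to 1. Calls over all genes moved in these fits too. For STZ-HFD, 220 higher and 221 lower became 6 and 23 with edgeR, 3 and 16 without weights and 30 and 26 with transcript totals. They became 8 and 37 with the muscle score and 3 and 31 with the adipocyte score. For db/db, 208 and 73 became 7 and 2 without weights and 0 and 0 with the adipocyte score, but 716 and 37 with library totals alone. The cause was not tested.

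Differences between models near 0 reversed. Loxl2 went from −0.05 to 0.028 (replicate block), 0.058 (GC removed and replicate block), 0.53 (muscle score) and 0.26 (library totals), and ran from −0.33 to 0.26 without 1 library. Loxl3 went from 0.00 to 0.19 (edgeR), 0.20 (DESeq2), 0.15 (no weights), 0.051 (replicate block), 0.14 (transcript totals), 0.0081 (ribosomal RNA genes removed), 0.13 (GC removed), 0.14 (GC removed and replicate block), 0.23 (muscle score), 0.21 (library totals) and 0.38 (without the RIP pair), and from −0.16 to 0.31 without 1 library. Loxl4 went to −0.045 (replicate block) and −0.92 (muscle score), and Ltbp2 in STZ-HFD to 1.88 with transcript totals.

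With the replicate block, 2 members were called in db/db, Loxl3 (−1.12, limma adjusted p = 0.00203) and Loxl4 (−1.11, limma adjusted p = 0.00278), and all-gene calls went from 208 higher and 73 lower to 796 and 688 in db/db, and from 220 and 221 to 2 and 4 in STZ-HFD. After removal of group means, log2 CPM of same-numbered diabetic and control libraries correlated at −0.28 to 0.19. Differently numbered ones correlated at −0.28 to 0.45, so the numbers were not taken as pairs. EdgeR called 0 genes in db/db and DESeq2 158 higher and 53 lower.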
